A study of Mus musculus with 6 samples.

Results

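The 10 genes described here, Tmem86a, Reck, Nt5e, Dsel, B3galnt2, Jph1, Rab39, Tcim, Ano3 and Fastkd5, were selected from 43432 listed genes because their RNA lay below the resting level after 2 h of depolarization and above it after 6 h. The samples were cortical neurons of wild-type C57BL/6 mouse embryos at E16.5, with male and female embryos pooled, kept in culture for 7 days. All 3 groups were silenced overnight with 1 µM TTX, which blocks sodium channels, and 100 µM DL-AP5, which blocks NMDA receptors. They were then held in 55 mM KCl for 2 h or 6 h or were not depolarized (0 h), with 2 replicates in each group and 6 poly(A) RNA-seq libraries in all. Each 0 h library therefore carries the silencing drugs too, so the resting level here is that of silenced neurons. The replicates are biological duplicates per the series text, which does not say whether they came from separate litters, and the errors below measure the spread between these libraries.

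Raised extracellular KCl depolarizes the membrane and opens voltage-gated calcium channels, and the calcium that enters starts waves of transcription. Transcription factor genes of the first wave come on directly, and their products act on genes of a later wave. None of the 10 genes is among the usual markers of either wave. They encode enzymes and regulators of the cell surface and extracellular space (Nt5e, Reck), enzymes that build glycans in the Golgi and endoplasmic reticulum (Dsel, B3galnt2), membrane proteins (Tmem86a, Ano3, Jph1) and intracellular proteins (Rab39, Tcim, Fastkd5).

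Total expected counts ranged from 25959298 to 28573067 per library, and 18767 to 19212 genes had a count. The activity genes Fos, Npas4, Arc, Egr1, Nr4a1 and Bdnf were all called higher at both 2 h and 6 h against 0 h. All 10 neuronal markers were detected, with summed levels of 5764 to 5851 TPM before KCl, 5375 to 5506 TPM after 2 h and 5611 to 5708 TPM after 6 h. At 6 h against 0 h 2 of them were called higher, the GABA synthesis genes Gad1 (1.41) and Gad2 (1.36), and 1 lower, Tubb3 (-1.01), a neuronal tubulin. Astrocyte markers summed to 591 to 632 TPM at 0 h, 567 to 568 TPM at 2 h and 457 to 474 TPM at 6 h. Those of dividing progenitors summed to 123 to 136, 126 to 129 and 141 to 149 TPM, and those of pericytes and fibroblasts to 16.8 to 20.0, 14.9 to 16.49 and 12.7 to 13.8 TPM. Markers of the oligodendrocyte lineage summed to 126 to 149 TPM at 0 h, 97.6 to 114 TPM at 2 h and 122 to 132 TPM at 6 h, with 1 of 7 called lower at 2 h (Sox10). Microglial and endothelial markers summed to at most 6.48 and 1.19 TPM in any library, with Cldn5 and Cdh5 near 0. At 6 h against 0 h 1 of 6 progenitor, 2 of 6 pericyte and fibroblast, 1 of 6 microglial and 1 of 3 endothelial markers tested were called higher, 1 pericyte and fibroblast and 2 oligodendrocyte lineage markers lower, and no astrocyte marker was called. In bulk RNA, fewer cells of a type and less RNA per cell cannot be told apart, and the part of other cell types in the values below was not tested.

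At 2 h the 10 genes were 2.00-fold to 3.10-fold below 0 h, and at 6 h they were 2.04-fold to 2.98-fold above it. From 2 h to 6 h their normalized counts (counts divided by a size factor for each library) rose 4.34-fold to 9.24-fold. Both 2 h libraries lay below both 0 h libraries in 10 of 10 genes, as they did in 31.1% of all genes tested. Both 6 h libraries lay above both 0 h libraries in 10 of 10, against 41.2% of all genes tested, and both held together in 8.35%. These values chose the genes, so nothing is read from the counts and no test of them is given.

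A call required a DESeq2 adjusted p no higher than 0.05 together with a log2 fold change past 1 in either direction. At 2 h against 0 h, 3.62% of the genes tested were called higher and 5.94% lower, at 6 h against 0 h 9.1% higher and 10.2% lower, and at 6 h against 2 h 10.1% higher and 8.02% lower. With libraries scaled to their totals the median of all genes tested was -0.15 at 2 h and -0.25 at 6 h (log2), against 0.015 and 0.00044 with size factors, and higher calls made up 27.3% and 28.7% of all calls instead of 37.8% and 47.2%. Only 18 genes, or 0.107% of those tested in both comparisons, were called lower at 2 h and higher at 6 h against 0 h, and all 10 genes were among them. A further 349 genes were below 0 h at 2 h and above it at 6 h with both adjusted p (DESeq2) no higher than 0.05, but missed the fold threshold in at least 1 comparison. Fastkd5 was the last gene inside the threshold at 2 h, with a log2 fold change of -1.001, and B3galnt2 the last inside it at 6 h, with 1.03. Just outside were Znrf3 (-0.99 and 1.39), Gm42688 (-1.08 and 0.98) and Helb (-0.98 and 0.98).

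**Figure D1:**
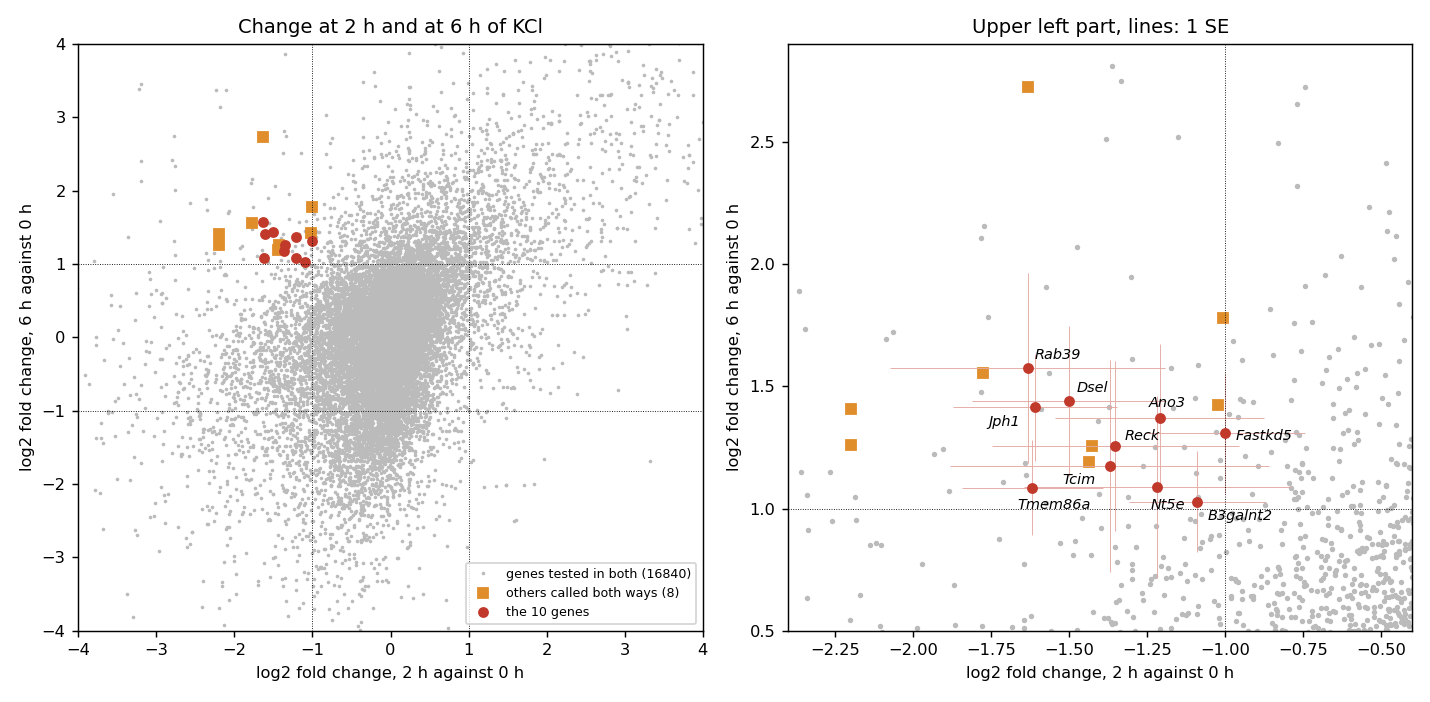
Each point is a gene tested in both comparisons, with the log2 fold change at 2 h against 0 h on the horizontal axis and at 6 h against 0 h on the vertical axis (347 genes lie outside the axes of the left panel), and the right panel enlarges the upper left with 1 SE drawn for the 10 genes. The 10 genes (circles) sit between -1.63 and -1.001 at 2 h and between 1.03 and 1.58 at 6 h, with the 8 other genes called both ways (squares) around them.

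The selection rests on few libraries. Of the 10 genes, 6 were called both ways when 0 h replicate 1 was left out, 5 without 0 h replicate 2 and 4 without 2 h replicate 2, while the number of all such genes was 44 without 2 h replicate 1. The sign pattern, below 0 h at 2 h and above it at 6 h, is what the genes were selected on, and 17.1% of the genes tested had it. The 14 other settings use the same libraries, so that the pattern held for all 10 in each of them, and in TPM, is no further support.

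The upstream sequences of the genes were examined for the sites of factors that respond to calcium and of a general promoter factor. RefSeq promoters were at hand for 7 of the genes (8 promoters, with a pair for Ano3), and the 250 bases before the start are described. The full cAMP response element TGACGTCA and the AP-1 site TGANTCA, searched on both strands like the other motifs, were in none of the 8, and they were in 1.55% and 6.75% of all 32851 promoters. The short element TGACG, which the full element contains, was in the promoters of Tmem86a, Rab39 and Ano3, and in 17.8% of all promoters. The GC box GCCCCGCCC was in those of Dsel, Nt5e, Rab39 and Reck, and in 9.94% of all, and TATAAA was in 1 promoter of Ano3 and in 12.4% of all. The following 3 sequences are shown because each holds a short element or the most GC boxes outside the annotated transcripts. They are from RefSeq on GRCm38.p6, read 5′ to 3′ on the gene's strand, with short elements and GC boxes in capitals.
Tmem86a, chr7:47050390-47050630, plus strand: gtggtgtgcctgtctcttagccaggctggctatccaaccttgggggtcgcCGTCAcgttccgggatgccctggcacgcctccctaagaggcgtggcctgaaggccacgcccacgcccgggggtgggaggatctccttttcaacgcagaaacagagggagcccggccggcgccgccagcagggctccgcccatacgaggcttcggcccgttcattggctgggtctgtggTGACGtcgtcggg
Rab39, chr9:53706233-53706482, minus strand: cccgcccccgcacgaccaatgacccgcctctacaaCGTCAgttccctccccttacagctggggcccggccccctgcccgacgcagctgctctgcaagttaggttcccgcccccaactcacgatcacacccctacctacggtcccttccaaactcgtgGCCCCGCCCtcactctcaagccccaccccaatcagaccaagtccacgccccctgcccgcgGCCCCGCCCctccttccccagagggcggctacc
Dsel, chr1:111864919-111865168, minus strand: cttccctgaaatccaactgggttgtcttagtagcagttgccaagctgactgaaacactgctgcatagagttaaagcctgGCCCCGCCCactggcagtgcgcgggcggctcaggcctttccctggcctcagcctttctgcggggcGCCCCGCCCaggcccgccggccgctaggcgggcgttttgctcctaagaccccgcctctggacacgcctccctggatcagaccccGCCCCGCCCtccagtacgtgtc

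The short elements of Tmem86a began 200 and 22 bases before the RefSeq start, of which the second lies inside the first exon of the GENCODE model. That of Rab39 began 215 bases before its start. The Ano3 match, 48 bases before its RefSeq start, lies inside the longer GENCODE gene. Rab39 also held 2 GC boxes and Dsel 3. All 250 bases of the Nt5e sequence, with its GC box, lie inside the GENCODE gene, which starts before the RefSeq start. The GC content of the 250 bases was 65.6% to 72% in Dsel, Reck, Tmem86a, Rab39 and Nt5e, with 17 to 21 CpG dinucleotides, and 43.6% to 52.4% in Ano3 and Fastkd5, with 3 to 9. The medians of all promoters were 52.4% and 6. A match of letters is a description and not a bound site, and the absence of one says nothing of a factor.

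Among the genes of the cell surface, Nt5e (ENSMUSG00000032420, chr9:88327197-88372092, plus strand) encodes CD73, the enzyme that turns extracellular AMP into adenosine. Its normalized counts were 43.5 and 43.8 before KCl, 20.0 and 17.6 after 2 h, and 102 and 83.9 after 6 h. The 3 groups did not overlap, and Nt5e was among the least abundant of the 10 genes. The log2 fold change was -1.22 (SE 0.43) at 2 h and 1.09 (SE 0.37) at 6 h against 0 h. Its call at 2 h ended when any single library was left out or with the replicate block, and its call at 6 h ended with library totals, with the block and GC correction together, or with either 0 h or either 6 h library left out.

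The genes around Nt5e, which release, degrade or sense extracellular nucleotides and adenosine, were tested as a list of 15. At 6 h against 0 h 3 were called lower and 1 higher, while 10.2% and 9.1% of all genes tested were. The list had a median log2 change of -0.59, against 0.00044 over all genes tested. P2rx4, an ATP-gated channel, fell by 2.47 (DESeq2 adjusted p 3.15e-09). Adora2a, a receptor for adenosine, fell by 1.29 (DESeq2 adjusted p 0.00108), and Slc29a1, a transporter of nucleosides, fell by 1.18 (DESeq2 adjusted p 0.000338). Entpd3, which degrades extracellular ATP, was the single gene of the list called at 2 h, at -1.08 (DESeq2 adjusted p 0.000178), and stood at -0.53 at 6 h, short of the fold threshold.

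Reck (ENSMUSG00000028476, chr4:43875530-43944806, plus strand) encodes a protein anchored to the membrane by a lipid, which inhibits matrix metalloproteinases and acts as a receptor partner for Wnt7 ligands. Normalized counts of Reck were 68.4 and 56.5 before KCl, 18.0 and 31.0 after 2 h, and 139 and 159 after 6 h. The groups did not overlap, but 2 h replicate 1 was only 0.58 times as high as replicate 2. The log2 fold changes were -1.35 (SE 0.40) and 1.26 (SE 0.35). Without either 0 h library or without 2 h replicate 1 the gene was not called at 2 h, and without 0 h replicate 2 or 6 h replicate 2 it was not called at 6 h.

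In the list of 18 membrane and matrix proteases, their inhibitors and Wnt7 partners, 2 genes were called lower at 2 h and 1 at 6 h, and none was called higher against 0 h. Mmp16, a membrane-bound metalloproteinase, fell by 1.05 at 2 h (DESeq2 adjusted p 0.000307) and rose by 1.29 from 2 h to 6 h (DESeq2 adjusted p 2.86e-06). It ended at 0.23 relative to 0 h, short of the fold threshold. Wnt7a, a ligand that uses Reck, fell by 1.37 at 2 h (DESeq2 adjusted p 2.42e-12) and was still lower at 6 h, by -1.54 (DESeq2 adjusted p 1.61e-15). Wnt7b, the other ligand of this kind, was more abundant, with 46.0 and 46.3 TPM against 15.5 and 15.9 TPM of Wnt7a at 0 h, and was not called, at log2 fold changes of -0.05 and -0.50. The medians of the list were -0.01 at 2 h and -0.35 at 6 h.

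Dsel (ENSMUSG00000038702, chr1:111858702-111864918, minus strand) encodes an epimerase that converts glucuronic to iduronic acid in dermatan sulfate, a sugar chain of extracellular proteoglycans. It had the most normalized counts of the 10 genes, which are not scaled for length, with 906 and 788 before KCl, 409 and 189 after 2 h, and 2087 and 2505 after 6 h. The groups did not overlap, and the 2 h libraries differed 2.16-fold, with replicate 1 the higher. Dsel changed by -1.4995 (SE 0.31) and 1.44 (SE 0.31) on the log2 scale, and from 2 h to 6 h the level rose 7.67-fold. Leaving out libraries moved the change at 2 h between -2.17 and -1.07 without ending the call.

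Enzymes of chondroitin and dermatan sulfate synthesis formed a list of 20, of which 19 had counts. At 2 h 3 of them were called lower and none higher, and from 2 h to 6 h 6 were called higher and none lower, with a median of 0.36 against -0.0053 over all genes tested. Of all genes tested 5.94% were called lower at 2 h and 10.1% higher from 2 h to 6 h. At 6 h against 0 h 1 was called higher and 2 lower, with a median of 0.23. Chst12, a sulfotransferase of chondroitin, fell by 2.73 at 2 h (DESeq2 adjusted p 4.10e-15) and rose by 1.92 from 2 h to 6 h (DESeq2 adjusted p 8.32e-08). Chst15, a further sulfotransferase, fell by 1.14 (DESeq2 adjusted p 4.59e-14) and rose by 1.71 (DESeq2 adjusted p 1.39e-31). Xylt2, which starts the chains on the core protein, fell by 1.07 (DESeq2 adjusted p 0.00026) and rose by 1.501 (DESeq2 adjusted p 4.05e-08). B4galt7, which adds the next sugar of the linker, took another course and stood at -1.60 at 6 h relative to 0 h (DESeq2 adjusted p 1.18e-16). The others called at 6 h against 0 h, named after their values were seen to complete the count, were Chsy3 (1.07) and B3galt6 (-1.23). At 6 h Chst12, Chst15 and Xylt2 stood at -0.82, 0.57 and 0.43 relative to 0 h, all short of the fold threshold.

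The close relative Dse, the other epimerase of this pathway, was at 3.72 and 3.24 TPM before KCl, 2.64 and 2.31 TPM after 2 h, and 5.96 and 5.03 TPM after 6 h. Dsel was at 11.8 and 10.4 TPM before KCl, 5.47 and 2.92 TPM after 2 h, and 24.1 and 30.9 TPM after 6 h. The groups of Dse did not overlap either and kept the same order, but its log2 fold changes of -0.31 (DESeq2 adjusted p 0.36) and 0.84 (DESeq2 adjusted p 0.000511) were not called. From 2 h to 6 h it rose by 1.15 (DESeq2 adjusted p 1.98e-06) and was called. Dse and the other paralogs given below were added to the rule for named genes because they are the nearest relatives by name.

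B3galnt2 (ENSMUSG00000039242, chr13:13954469-13999103, plus strand) encodes a transferase that extends the O-mannosyl glycan through which alpha-dystroglycan binds the extracellular matrix. Normalized counts were 306 and 304 before KCl, 170 and 117 after 2 h, and 624 and 621 after 6 h. The 0 h and 6 h replicates were nearly equal, whereas the 2 h replicates differed 1.45-fold. The log2 fold changes were -1.09 (SE 0.22) and 1.03 (SE 0.21). The change at 6 h was at the fold threshold and was not called with the edgeR test, TMM factors, library totals or GC correction, with or without the replicate block, where it ranged down to 0.78. The call at 2 h ended without 2 h replicate 2.

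Among the other O-mannosyl glycan genes, several were lower at 6 h. Of 13 with counts, 5 were called lower and none higher at 6 h against 0 h, and 4 were called lower from 2 h to 6 h. Over all genes tested 10.2% and 8.02% were called lower in these comparisons. At 2 h 1 of the list was called lower and none higher, with a median of -0.32. This was Pomgnt2, named here to complete the count, at -1.20 (DESeq2 adjusted p 8.28e-05), and at 6 h it stood at -0.36 relative to 0 h. Pomt1, a subunit of the enzyme that attaches the first mannose, fell by 2.12 at 6 h (DESeq2 adjusted p 4.93e-26). Pomk, a kinase that acts on the glycan after B3galnt2, fell by 2.70 at 6 h (DESeq2 adjusted p 8.90e-76). Ispd, which makes a sugar nucleotide for the glycan, fell by 1.52 at 6 h (DESeq2 adjusted p 6.09e-06). Pomk was at 1258 normalized counts at 0 h and 194 at 6 h, while B3galnt2 went from 305 to 622 in the same libraries. B3galnt1, the relative by name that makes a glycolipid, was at 61.3 and 64.3 TPM before KCl, 38.4 and 39.1 TPM after 2 h, and 63.4 and 67.6 TPM after 6 h, and was not called.

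Tmem86a (ENSMUSG00000010307, chr7:47050601-47054777, plus strand) encodes a lysoplasmalogenase, a membrane enzyme that cleaves the vinyl ether bond of lysoplasmalogens. Its normalized counts were 202 and 207 before KCl, 60.9 and 72.4 after 2 h, and 440 and 428 after 6 h. The groups were far apart relative to the replicates, and 2 h replicate 1 was 0.84 times as high as replicate 2. Tmem86a changed on the log2 scale by -1.62 (SE 0.23) at 2 h and 1.09 (SE 0.19) at 6 h. The call at 2 h held in every setting but the test against a fold of 2, and that at 6 h ended also with library totals, where the change was 0.84.

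Of 11 genes of plasmalogen synthesis and turnover, none was called at 2 h and 1 was called lower at 6 h. This was Pla2g6, a phospholipase, at -1.11 (DESeq2 adjusted p 1.56e-05). The medians of the list were 0.15 at 2 h and -0.01 at 6 h. The paralog Tmem86b was at 1.29 and 2.18 TPM before KCl, 2.39 and 2.22 TPM after 2 h, and 1.25 and 2.32 TPM after 6 h. Its 6 h libraries overlapped both other groups and it was not called, and at 0 h Tmem86a was at 9.54 and 9.97 TPM.

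Ano3 (ENSMUSG00000074968, chr2:110655201-110950923, minus strand) encodes an anoctamin, a family of ion channels and lipid scramblases, and variants of the human gene are known in dystonia. Normalized counts were 91.4 and 105 before KCl, 53.9 and 31.0 after 2 h, and 274 and 236 after 6 h. The groups did not overlap, and the 2 h libraries differed 1.74-fold. The log2 fold changes were -1.21 (SE 0.33) and 1.37 (SE 0.30), and without 2 h replicate 2 or without 0 h replicate 2 the gene was not called at 2 h.

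Most of the other anoctamins tested were lower at 6 h. Of 7 tested, 5 were called lower and none higher at 6 h against 0 h, with a median of -1.35, and none was called at 2 h. Over all genes tested 10.2% were called lower and 9.1% higher at 6 h against 0 h. Those of the 5 not named below had means under 50 normalized counts. Ano10 fell by 1.47 (DESeq2 adjusted p 7.13e-23), Ano8 by 1.35 (DESeq2 adjusted p 3.69e-11) and Ano4 by 1.13 (DESeq2 adjusted p 2.67e-06). Ano4, a close paralog of Ano3, was at 6.51 and 6.98 TPM at 0 h and 2.64 and 2.56 TPM at 6 h, while Ano3 went from 1.01 and 1.17 TPM to 3.18 and 2.65 TPM. At 0 h the TPM of Ano4 was thus above that of Ano3 in both libraries. At 6 h the values lay close together, and since the TPM of Ano3 was scaled there to shorter transcripts than at 0 h (effective lengths of 5303 and 5568 against 6403 and 6391 bases), the 2 genes are not ordered at 6 h. Ano6, a lipid scramblase, was the exception, with 12.9 and 13.6 TPM at 0 h and 19.6 and 19.3 TPM at 6 h, a log2 fold change of 0.74 that was not called.

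Jph1 (ENSMUSG00000042686, chr1:16964560-17097889, minus strand) encodes a junctophilin, which tethers the endoplasmic reticulum to the plasma membrane and is best known from skeletal muscle. Normalized counts were 125 and 129 before KCl, 42.9 and 40.3 after 2 h, and 338 and 339 after 6 h. These were among the closest replicates of the 10 genes, at 2 h too. Relative to 0 h, Jph1 was at log2 values of -1.61 (SE 0.26) and 1.41 (SE 0.22), and the level rose 8.13-fold from 2 h to 6 h. Both calls held with any library left out.

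The junctophilins best known from brain, Jph3 and Jph4, were far above Jph1 at 0 h and did not share its course. Jph4 was at 90.3 and 92.4 TPM before KCl, 70.3 and 86.1 TPM after 2 h, and 49.5 and 53.8 TPM after 6 h. Jph3 was at 12.1 and 12.7, then 10.6 and 12.7, then 6.85 and 7.86 TPM, and Jph2 stayed at or below 0.23 TPM in every library. At 6 h both Jph3 (-0.57) and Jph4 (-0.75) were below 0 h without reaching the fold threshold, and Jph1 was at 5.38 and 5.37 TPM. Jph1 thus came nearer to Jph3 but stayed below it in every library.

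Of 16 tested genes at junctions of the endoplasmic reticulum and plasma membrane, 1 was called higher and 2 lower at 2 h, and 2 higher and 1 lower at 6 h. Tmem110, a regulator of these junctions, fell by 1.12 at 2 h (DESeq2 adjusted p 6.55e-09) and rose by 1.18 from 2 h to 6 h (DESeq2 adjusted p 4.94e-10). Esyt2, a tether of the same membranes, was unlike it in that it moved only late, by 1.13 at 6 h against 0 h (DESeq2 adjusted p 5.31e-12). Stim1, the calcium sensor of the endoplasmic reticulum, fell by 1.16 from 2 h to 6 h (DESeq2 adjusted p 1.04e-12). Esyt1 rose at both times, by 1.08 (DESeq2 adjusted p 0.0278) and 1.42 (DESeq2 adjusted p 0.0011).

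Rab39 (ENSMUSG00000055069, chr9:53684110-53706232, minus strand) encodes a Rab GTPase of endosomal and lysosomal traffic. Normalized counts were 72.8 and 59.0 before KCl, 31.0 and 11.4 after 2 h, and 203 and 189 after 6 h. The groups did not overlap, but the 2 h replicates differed 2.72-fold, more than in any other of the 10 genes. The 31 reads of 2 h replicate 1 have an exact 95% Poisson interval of 21.1 to 44.0 and the 11 reads of replicate 2 one of 5.49 to 19.7, so these libraries differ beyond counting error. The log2 fold changes were -1.63 (SE 0.44) and 1.58 (SE 0.39). With 2 h replicate 2 left out the change at 2 h was -1.11 and was not called, and with replicate 1 left out it was -2.54. It was not called at 2 h without 0 h replicate 1 either.

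The paralog Rab39b was at 34.2 and 31.6 TPM before KCl, 37.0 and 22.9 TPM after 2 h, and 34.9 and 37.5 TPM after 6 h, against 1.92 and 1.58 TPM of Rab39 at 0 h and 4.72 and 4.48 TPM at 6 h. Rab39b exceeded Rab39 in every library, and the range of its 2 h libraries overlapped both other groups. The complex of C9orf72, Smcr8 and Wdr41, which acts on Rab proteins of this group, did not move as a unit. C9orf72 rose by 1.08 at 2 h (DESeq2 adjusted p 7.09e-13). Smcr8 rose by 1.18 at 6 h against 0 h (DESeq2 adjusted p 1.87e-25), and Wdr41 fell by 1.04 (DESeq2 adjusted p 2.05e-11). In the whole list of 10, 1 gene was called higher and none lower at 2 h, and 1 higher and 1 lower at 6 h.

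Tcim (ENSMUSG00000056313, chr8:24437180-24438984, minus strand) encodes a small protein that binds Chibby and so acts on beta-catenin signalling. It had the fewest counts of the 10 genes, with normalized counts of 27.5 and 32.9 before KCl, 10.98 and 12.4 after 2 h, and 69.6 and 66.7 after 6 h. The groups did not overlap, and the Poisson intervals of the 2 h libraries ran from 5.49 to 19.7 and from 6.20 to 20.96 reads. Tcim stood at log2 fold changes of -1.37 (SE 0.51) and 1.17 (SE 0.43), and the call at 2 h ended with any library left out and with the replicate block. Its call at 6 h ended with library totals, GC correction, the replicate block, or either 0 h or either 6 h library left out. Cby1, the gene of Chibby, fell by 1.06 at 6 h (DESeq2 adjusted p 3.52e-09), and Ccnd1, a target of beta-catenin, rose by 1.04 (DESeq2 adjusted p 1.17e-11). These 2 were the called genes among 11 tested at 6 h, and none of 10 was called at 2 h.

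Fastkd5 (ENSMUSG00000079043, chr2:130613840-130630027, minus strand) encodes a mitochondrial protein needed to process precursor RNAs of the mitochondrial genome. Normalized counts were 341 and 344 before KCl, 215 and 127 after 2 h, and 901 and 796 after 6 h. The groups did not overlap, and the 2 h libraries differed 1.69-fold. Its changes on the log2 scale were -1.001 (SE 0.26) and 1.31 (SE 0.25). The change at 2 h missed the fold threshold with the edgeR test, with TMM factors, with GC correction and with a mean count of at least 10, and was -0.69 without 2 h replicate 2. The call at 2 h ended also without 0 h replicate 2 or 6 h replicate 1.

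The FASTK family and other genes of mitochondrial RNA processing gave a mixed picture. Of 13, 1 was called lower at 2 h and 2 lower at 6 h, and none was called higher against 0 h. Fastkd3 fell by 1.80 at 2 h (DESeq2 adjusted p 3.38e-11) and rose by 1.18 from 2 h to 6 h (DESeq2 adjusted p 2.93e-05), ending at -0.62. Fastkd1 was lower at 6 h, by -1.27 (DESeq2 adjusted p 7.71e-11), and Fastk fell by 1.17 from 2 h to 6 h (DESeq2 adjusted p 8.23e-10). Mterf3, a regulator of mitochondrial transcription, rose by 1.24 from 2 h to 6 h (DESeq2 adjusted p 3.13e-11). At 0 h Fastk was at 26.8 and 29.2 TPM, Fastkd1 at 19.2 and 17.0, Fastkd2 at 16.0 and 17.1, Fastkd5 at 9.07 and 9.79 and Fastkd3 at 8.63 and 7.60. At 6 h Fastkd5, with 21.2 and 19.4 TPM, was above the other 4 in both libraries.

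**Figure D2:**
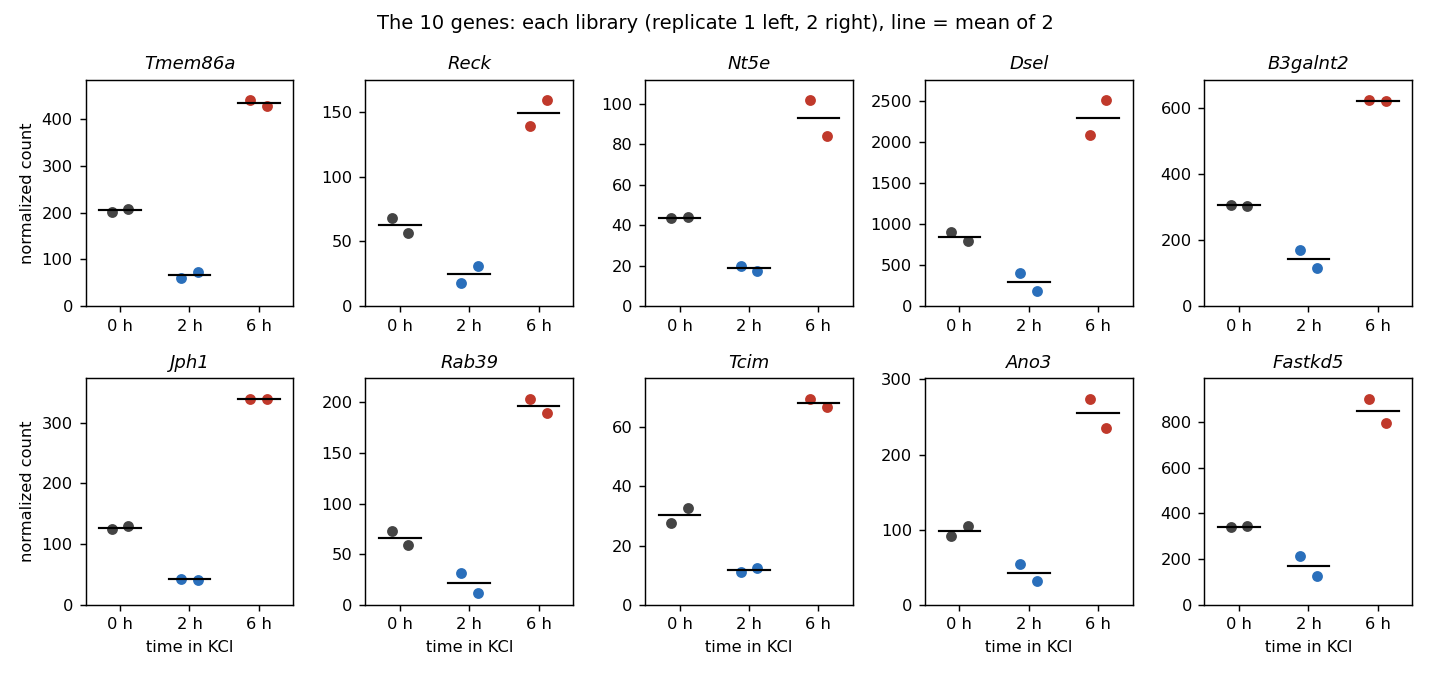
Normalized counts (vertical axis, starting at 0) of the 10 genes by time in KCl, with replicate 1 at the left, replicate 2 at the right and the mean as a line. In every panel both 2 h libraries lie below and both 6 h libraries above the 0 h libraries, as the selection required. By the ratio of replicates, which the linear axis does not show, the 2 h libraries are widest apart in Dsel, Rab39, Ano3, Reck and Fastkd5.

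Across the 10 lists, 134 relatives had counts. At 2 h 2 of 132 tested were called higher and 10 lower, or 1.52% and 7.58%, against 3.62% and 5.94% of all genes tested. At 6 h against 0 h 6 of 133 were called higher and 22 lower, or 4.51% and 16.54%, against 9.1% and 10.2% of all genes tested. The lists of Ano3 and B3galnt2 gave 5 of these lower calls each. The medians of the relatives were 0.00094 at 2 h and -0.095 at 6 h. None of the 134 was called lower at 2 h and higher at 6 h against 0 h, and the share over all genes tested was 0.107%, so that a count of 0 is near the background. A fall at 2 h followed by a rise from 2 h to 6 h was called in 7 of 132 (Mmp16, Chst12, Chst15, Xylt2, Tmem110, Orai1 and Fastkd3), or 5.30%, and in 3.21% of all genes tested. Orai1, a calcium channel subunit that works with Stim1, had a mean under 50 normalized counts and was named here to complete the 7.

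**Figure D3:**
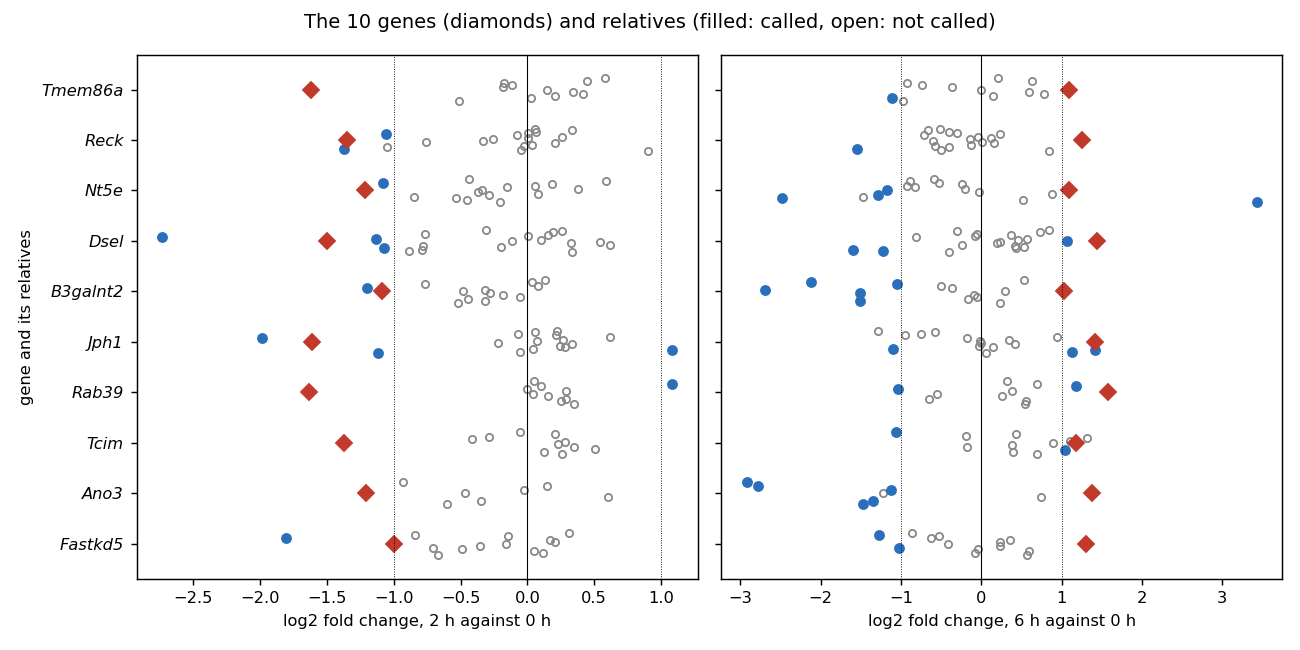
Log2 fold changes at 2 h against 0 h (left) and 6 h against 0 h (right) of each of the 10 genes (diamonds) and the genes of its list (circles, filled where called). The diamonds lie left of -1 in the left panel and right of 1 in the right panel by selection, and the filled circles of the Ano3 and B3galnt2 lists at 6 h all lie left of -1.

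Levels between genes were compared in TPM, which is scaled for length. At 0 h the order was Dsel (11.1 ± 1.0, SD, n = 2), Tmem86a (9.76 ± 0.30), Fastkd5 (9.43 ± 0.51), B3galnt2 (6.41 ± 0.021), Jph1 (2.46 ± 0.70), Rab39 (1.75 ± 0.24), Tcim (1.42 ± 0.18), Ano3 (1.09 ± 0.11), Reck (1.06 ± 0.13) and Nt5e (0.84 ± 0.014). The libraries of Tmem86a and Fastkd5 overlapped, as did those of Ano3 and Reck, so these neighbours cannot be ordered. At 2 h the TPM of the 10 genes ranged from 0.34 in Nt5e to 4.20 in Dsel, and at 6 h from 1.57 in Nt5e to 27.5 in Dsel, as means of 2 libraries. At 2 h Dsel (5.47 and 2.92) overlapped Fastkd5 (5.38 and 2.98), and Nt5e (0.36 and 0.31) overlapped Reck (0.27 and 0.47). Neither end of the range at 2 h is therefore separated from the other genes. The median of their means was 2.10 TPM before KCl, 0.75 after 2 h and 4.99 after 6 h.

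The transcripts of the 10 genes were mostly poor in GC. GC content was 40.2% in Ano3, 40.8% in Dsel, 41.2% in Rab39, 43.3% in Tcim, 44.3% in Fastkd5, 46.2% in B3galnt2, 46.7% in Jph1, 48.0% in Nt5e, 48.4% in Reck and 56.9% in Tmem86a. In 9 of 10 it was below the median of 49.8% over 16747 genes tested, and Ano3, Dsel and Rab39 were below the 10th percentile. Locus length had no such lean, with 5 of 10 below the median of 22452 bp. It ran from 1805 bp in Tcim and 4177 bp in Tmem86a to 133330 bp in Jph1 and 295723 bp in Ano3, which was at percentile 96.6. Tcim, Dsel and Fastkd5 have 1 coding exon, as do 7.19% of 14764 tested protein-coding genes, whereas Reck has 21 and Ano3 27.

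**Figure D4:**
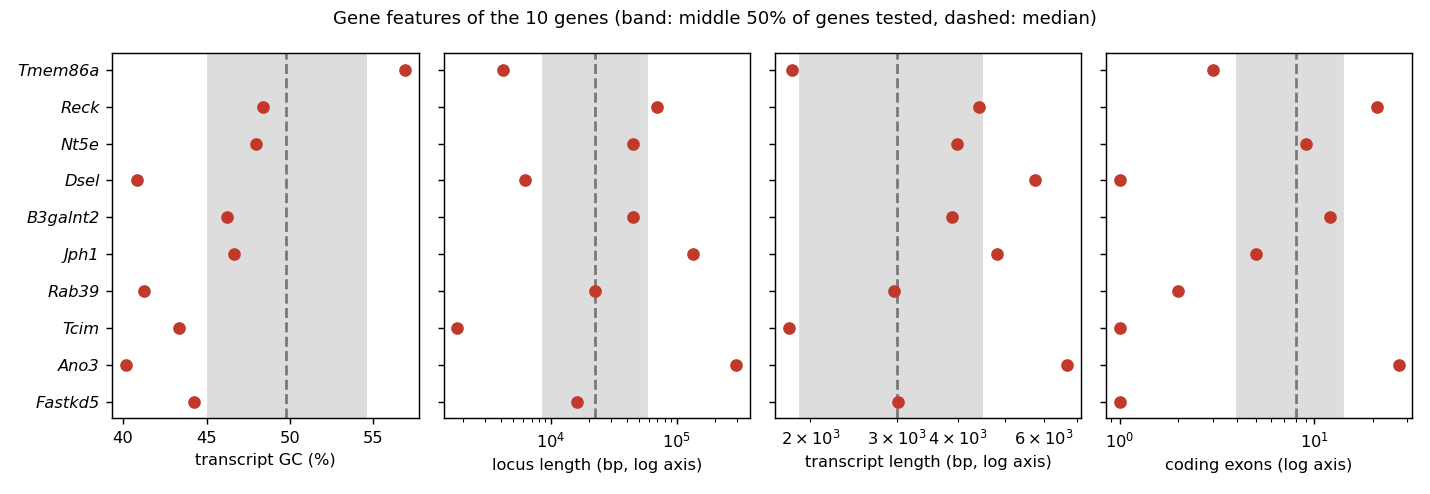
GC content, locus length, transcript length and number of coding exons of the 10 genes, the last 3 on log axes, with the middle 50% (band) and the median (dashed) of the genes tested, and of protein-coding genes for coding exons. In GC content 9 genes lie left of the median of 49.8%, while locus lengths spread on both sides of 22452 bp.

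GC content matters here because replicates differed along it, most of all at 2 h. Over 12290 genes with a mean of at least 50 normalized counts, replicates differed in log2 value with an SD of 0.43 after 2 h. The SD was 0.25 before KCl and 0.21 after 6 h. Spearman's rho between GC content and this difference (replicate 1 minus replicate 2) was negative in every group. The 0 h pair gave -0.41 and the 6 h pair -0.29, while the 2 h pair gave the strongest value, -0.76. In the same way Rab39, Dsel, Ano3, Fastkd5 and B3galnt2, all at or below 46.2% GC, were higher in 2 h replicate 1, by 1.45-fold to 2.72-fold. Tmem86a and Reck, with the highest GC content, were higher in replicate 2. Nt5e, close to Reck at 48.0% GC, was instead 1.14 times as high in replicate 1, and Jph1 (46.7% GC) 1.07 times. Tcim, low in both GC content and counts, went against this order and was 0.89 times as high in replicate 1. GC correction brought the ratio of Dsel from 2.16 to 1.46, of Ano3 from 1.74 to 1.12, of Rab39 from 2.72 to 1.89, left that of Reck at 0.58, and moved that of Tcim further from 1, from 0.89 to 0.71. After it, both 2 h libraries of all 10 genes were still below both 0 h libraries. Under it Fastkd5 was no longer called at 2 h, and B3galnt2 and Tcim no longer at 6 h.

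**Figure D5:**
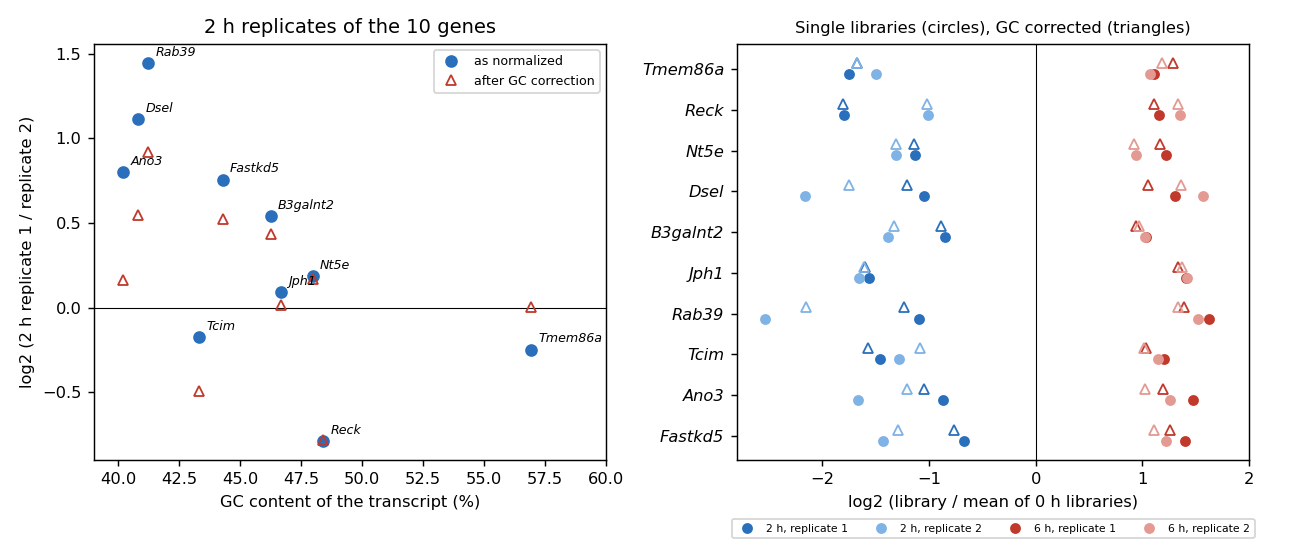
Left, log2 ratio of 2 h replicate 1 to replicate 2 against transcript GC content (%), and right, log2 of each 2 h and 6 h library over the mean of the 0 h libraries, both with size factors (circles) and after GC correction (triangles). Rab39 and Dsel, at 41.2% and 40.8% GC, have the largest ratios of replicate 1 to replicate 2, and all triangles at 2 h stay left of 0 and all at 6 h right of it.

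The deposited effective length, a mean over a gene's transcripts weighted by their abundance, moved in some genes. In Dsel it was 5400 and 5383 bases before KCl, 4624 and 4071 after 2 h, and 5321 and 5077 after 6 h. At 2 h it stood at 85.8% and 75.5% of the 0 h mean, which is where shorter transcripts of the gene had a larger part in the estimate. In Ano3 it was 6403 and 6391 bases at 0 h and between 4248 and 5568 at the other times, so that its TPM at 2 h and 6 h is scaled to shorter transcripts than at 0 h. In Jph1 it varied between replicates, with 4490 and 1914 bases at 2 h, and its 2 h TPM of 0.59 and 1.32 differed although its normalized counts were nearly equal. The length of Reck, with 3 annotated transcripts, stayed within 1% of the 0 h mean. Tmem86a, B3galnt2, Rab39 and Tcim have 1 transcript each in GENCODE M21, and their lengths say nothing of such a shift. The M21 transcripts of Tmem86a and B3galnt2 (1831 and 3892 bases) exceeded the effective lengths (1489 and 3379 bases in 0 h replicate 1) by more than those of Rab39 (2971 and 2669) and Tcim (1805 and 1503). The deposited values for Tmem86a and B3galnt2 may therefore rest on other transcript models than the GC content, transcript number and overlaps given here.

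Overlapping genes make some of these counts uncertain. Fastkd5 shares 1966 bases of exon on the same strand with Ubox5, a ubiquitin ligase gene, and had non-whole expected counts (more than 0.005 from a whole number) in 5 of 6 libraries, so its reads were divided between genes. Ubox5 was at 467 and 419 normalized counts before KCl, 198 and 270 after 2 h, and 370 and 404 after 6 h. It was thus lower at 2 h as well, at -0.92, but at 6 h it lay below both 0 h libraries, unlike Fastkd5. Tcim overlaps the antisense gene Gm26714 by 337 bases and had non-whole counts in 4 libraries, but Gm26714 did not exceed 1.69 normalized counts. B3galnt2 shares 325 bases with Tbce on the other strand, which was at 834 and 822, then 943 and 922, then 601 and 537, and so ran opposite to it. Ano3 shares 61 bases with Muc15, which did not exceed 8.60, and the 34 bases that Jph1 shares with Gm28376 had no counts for that gene. Whether the counting used strand is not given in the sources used here.

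The 8 other genes called both ways were compared with the 10 only by their values. Spaca6, a gene known from sperm, had a mean of 47.2 normalized counts before KCl, 15.2 after 2 h and 312 after 6 h, with log2 fold changes of -1.63 and 2.73. Kcns2, a modulatory potassium channel subunit, had -2.20 and 1.41, and Acvr1c, a receptor of the TGF-beta family, -1.02 and 1.42. The other 5 are non-coding, namely Mir124a-1hg (-1.78 and 1.55), Mir124-2hg (-1.44 and 1.19), A330023F24Rik (-2.20 and 1.26), Gm20342 (-1.43 and 1.25) and G530011O06Rik (-1.01 and 1.78). All 10 genes described here are protein coding.

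The genes nearest to the median profile of the 10 were sought among 11177 others with a mean of at least 100 normalized counts, by the root mean square difference of centred log2 values over the 6 libraries. The nearest were Znrf3 (0.14), Hcrtr2 (0.16), Snx33 (0.20), Zfp385b (0.21) and Myh9 (0.22), where the 10 genes themselves ranged from 0.14 to 0.45. Of these others, 192 were nearer than the farthest of the 10. Znrf3, a ubiquitin ligase that removes Wnt receptors, was at 385 and 358 before KCl, 196 and 179 after 2 h, and 1013 and 929 after 6 h. Hcrtr2, the second orexin receptor, was at 120 and 136, then 70.9 and 62.0, then 364 and 330. Myh9, a heavy chain of non-muscle myosin, was at 746 and 853, then 273 and 309, then 1490 and 1627. All 5 were below 0 h at 2 h and above it at 6 h, and each missed the fold threshold in 1 of the 2 comparisons, with the value short of it between 0.92 and 0.99 in size.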

How the data were processed

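Poly(A) RNA of 6 libraries was measured by paired-end sequencing. The authors mapped reads to mm10 and estimated expression with RSEM 1.3.0, and Bowtie2 2.2.9 is named in the submitters' processing notes. The expected counts deposited by the authors are estimates that need not be whole and are not normalized, and reads shared between genes are divided by likelihood. The TPM values deposited by the authors are scaled for length and to a common total. Effective lengths, also deposited, are another quantity, given in bases. The deposited FPKM values were not used here. The annotation release is not given in the sources used here, and GENCODE M21 of the same build supplied 42462 symbols and 42548 positions for 43432 genes.

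Expected counts were rounded, and 22515 genes with a count were fitted with DESeq2 1.42.0 in R 4.3.3 in a single model of 3 groups, with median-of-ratios size factors and Benjamini-Hochberg adjustment. Calls needed an adjusted p no higher than 0.05 with a log2 fold change past 1 in either direction. All 10 genes passed the independent filter. The script was tested on simulated data. Group and replicate numbers came from the sample titles. The 2 samples of a group differed beyond sampling noise in every group. Alternatives were edgeR 4.0.16, other scalings, a mean count of at least 10, GC correction, a replicate block, a test against a fold of 2, leaving out each library, and pseudocounts of 1 and 0.1 for TPM. Poisson intervals (95%) cover counting error only, since reads carry no molecular identifiers. GC content was taken from the longest coding transcript of each gene.

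The 10 genes and the gene lists were chosen with earlier results of these data known. Named genes were the 10, at most 4 called genes per list with a mean of at least 50 normalized counts in order of fold change, other genes called both ways, the 5 nearest profiles and overlapping genes. A gene that this rule would name is not reported here. Promoters are from RefSeq (GRCm38.p6).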

Additional observations from a re-analysis of the deposited data

How the results depend on the processing

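Each of the 10 genes kept its direction at 2 h and at 6 h against 0 h under all 14 alternatives, which use the libraries they were selected on. In the test against a fold change of 2, none of the 10 was called at 2 h or at 6 h against 0 h (0 of 10 for each and for both together), though 8 were called from 2 h to 6 h. Over all genes this test called 178 higher and 225 lower at 2 h, 446 higher and 414 lower at 6 h against 0 h, and 342 higher and 198 lower at 6 h against 2 h. It left 1 gene called lower at 2 h and higher at 6 h against 0 h, 79 called lower at 2 h and higher from 2 h to 6 h, and 1, 5 and 4 relatives in the 3 comparisons. With library totals 6 of the 10 were called at 6 h and 6 in both, and 1032 genes were called higher at 6 h against 0 h. With 1 library left out, 4 to 8 of the 10 were called at 2 h (4 without 2 h replicate 2), 4 to 7 were called both ways, and 12 to 44 genes in all were called both ways (44 without 2 h replicate 1). The cause of these changes was not tested, except that fewer samples entered the fits without a library.

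Samples with the same replicate number did not deviate together in all pairs (correlations of 0.28, -0.0023 and 0.15), so the numbers were not taken as pairs. With the replicate block 8 of the 10 were called at 2 h, 9 at 6 h and 8 in both, and with the block and GC correction 9, 7 and 7. Counts of 11 to 31 reads at 2 h in Tcim, Nt5e, Rab39 and Reck limit how precisely their fall can be given.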
